A study of Mus musculus with 116 samples.

Results

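The junctions described here formed at a Cas9 break in mouse pro-B cells held in G1, with and without Ku70. They come from 12 of the 116 samples of the series: 3 libraries each of WT clone A, Ku70-/- clone A1, WT clone B and Ku70-/- clone B1. The members are the libraries whose labels name these clones, the G1-arrested state and a Cas9 break, and the JoinT-seq junction list of each library was read. All 4 clones are v-Abl-transformed pro-B lines, immature B-lineage cells immortalised with the Abelson oncogene, and all carry an Emu-Bcl2 transgene, which keeps B-lineage cells alive during arrest. STI-571 (3 µM, 96 h), an inhibitor of the Abl kinase, stopped all of them in G1, and Cas9 was delivered by nucleofection together with a guide RNA that targets c-Myc. Each genotype rests on 1 clone per lineage, the labels do not say how a clone was made, and Ku70 itself was not measured in these genomic DNA libraries. Clone A1 was compared with clone A, and clone B1 with clone B.

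Ku70 and Ku80 form the ring that slides onto a broken DNA end and brings in the other factors of classical non-homologous end joining, including the XRCC4 and ligase IV complex that seals the ends. Joints made by that pathway usually lose few bases and often hold inserted bases, which polymerases add at the ends before ligation; in B-lineage cells terminal deoxynucleotidyl transferase is the best known of these. Ends that are not held by Ku can be cut back by nucleases, and the exposed single strands can pair over short matching stretches (microhomology) before they are joined; joining without Ku is called alternative end joining.

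The 6 WT libraries held 28028 to 55809 junction rows and the 6 Ku70-/- libraries 12668 to 51862, with 1 row per read. Of all 410852 rows, 386432 were rejoins: the prey, which is the sequence joined to the primer-side end (the bait), lay within 100 kb downstream of the break in the same orientation. No list, WT or Ku70-/-, held a rejoin of both ends without any change. All shares below are therefore shares of the listed, altered joins, and how often ends were rejoined unchanged cannot be read from them. The other 24420 rows held no repeated junction, whereas the rejoin rows came down to 44264 distinct junctions (same prey position and orientation, same bait end, same overlap or insertion and inserted bases), so the lists treat copies differently in these classes, and the handling of copies is not given in the sources used here. The 6 libraries of lineage B shared 1 Nextseq run. In lineage A, sequenced on Miseq, no WT library shared a run with a Ku70-/- library, so sequencing run cannot be told apart from genotype in that lineage. A second set of WT clone A libraries holds 1 library that shared its run with Ku70-/- A1 replicate 1; insertions made up 85.5% of its rows against 4.72%, and the bait end was intact in 64.5% against 3.06%. Values are means ± SD over 3 libraries. Tests are two-sided exact permutation tests over libraries, permuted within lineage, whose smallest p is 0.005, and adjusted p is the Benjamini-Hochberg value over 22 measures. Nothing in the labels says that the 3 libraries of a clone came from separate cultures, so the p-values measure the spread between libraries, which may be technical.

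The break, as defined from the reads, lay on chromosome 15 of mm10 between bases 61987303 and 61987304, inside the gene Myc (61985341 to 61990361 in the RefSeq table for GRCm38.p6). Exon and intron annotation was not used here. The most frequent bait end and prey start in WT clone A defined the position. The sequence across it, read from the deposited reads, is shown with the GGG that follows the break by 3 bases in capitals, the pattern of a Cas9 PAM on the plus strand:

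chr15:61987264-61987343, plus strand, 40 bait bases then 40 prey bases: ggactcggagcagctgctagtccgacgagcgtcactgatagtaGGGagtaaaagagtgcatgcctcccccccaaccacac

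The prey side holds a run of C and a CA repeat, in capitals here, which is shown because many prey ends of Ku70-/- rejoins lay in it:

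chr15:61987304-61987423, plus strand: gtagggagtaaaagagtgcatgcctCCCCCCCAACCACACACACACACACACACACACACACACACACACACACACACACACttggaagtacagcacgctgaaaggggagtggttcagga

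The rejoins on which the comparison turns were the 5 most frequent of WT cells and the 6 most frequent of Ku70-/- cells. Each is drawn as up to 18 bait bases, the inserted or shared bases in capitals (the most frequent bases where insertions varied) and 18 prey bases. A shared base could have come from either end and is counted as lost from neither. Where a join shares bases, the bait and prey losses given here are therefore minima.

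Both ends whole, 1 base inserted: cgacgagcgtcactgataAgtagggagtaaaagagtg
Both ends whole, 2 bases inserted: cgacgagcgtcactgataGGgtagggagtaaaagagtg
Both ends whole, 3 bases inserted: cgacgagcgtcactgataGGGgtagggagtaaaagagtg
Both ends whole, 4 bases inserted: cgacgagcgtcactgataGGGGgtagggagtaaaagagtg
1 bait base lost, blunt: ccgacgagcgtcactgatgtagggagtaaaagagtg
1 prey base lost, 2 shared: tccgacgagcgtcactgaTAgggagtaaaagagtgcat
8 bait and 15 prey bases lost, 2 shared: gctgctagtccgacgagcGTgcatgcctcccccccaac
11 bait and 13 prey bases lost, 3 shared: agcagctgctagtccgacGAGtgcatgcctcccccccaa
23 bait and 20 prey bases lost, 3 shared: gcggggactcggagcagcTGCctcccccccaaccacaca
37 bait and 104 prey bases lost, 5 shared: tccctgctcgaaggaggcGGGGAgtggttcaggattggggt
73 bait and 109 prey bases lost, 2 shared: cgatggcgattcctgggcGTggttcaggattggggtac

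WT cells mostly kept the bait end at the break whole, and Ku70-/- cells seldom did. Rejoins with no loss at either end made up 63.8% to 64.9% in the WT A libraries and 46.5% to 51.2% in WT B. In the Ku70-/- libraries they made up 0.22% to 0.563%. Over distinct rejoins the WT shares were 12.3% to 19.3%. The bait end was intact in 68.4%, 67.2% and 67.6% of rows of the WT A libraries and in 3.06%, 2.25% and 4.53% of the Ku70-/- A1 libraries. In lineage B the WT libraries kept it in 55.1%, 58.1% and 58.1% and the Ku70-/- libraries in 2.09%, 2.99% and 2.99%. The groups lay far apart in both lineages (mean difference -59.4 percentage points, exact permutation p = 0.005, adjusted p = 0.0055). More than 10 bait bases were lost in 1.48% ± 0.135 of WT A and 2.22% ± 0.331 of WT B rows, against 76.7% ± 5.76 of Ku70-/- A1 and 87.8% ± 1.82 of Ku70-/- B1 rows (80.4 points, exact permutation p = 0.005, adjusted p = 0.0055). Reads start from a primer in the bait, so long bait losses cannot be read, and no rejoin had lost more than 86 bait bases.

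Within the Ku70-/- libraries the bait losses were spread over the whole readable length. The median loss of a rejoin was 28, 36 and 25 bases in the A1 libraries and 49, 42 and 42 bases in the B1 libraries, against 0 in all 6 WT libraries. Losses of 21 to 40 bases were the largest class in clone A1 (34.3% ± 1.09 of rejoins), where 14.1% ± 2.78 had lost 6 to 10 bases. In clone B1 losses of 21 to 40, 41 to 60 and 61 to 80 bases had like shares (26.9% ± 1.27, 24.5% ± 1.02 and 25.2% ± 1.51), and 4.97% ± 0.491 had lost 6 to 10. Both Ku70-/- clones thus had long losses, with longer ones in B1; lineage and sequencing run cannot be told apart in that difference, which was not tested.

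The prey end, on the far side of the break, was also whole in most WT rejoins and in few Ku70-/- rejoins. It was intact in 92.1% ± 0.415 of WT A and 86.5% ± 0.857 of WT B rejoins, and in 1.53% ± 0.366 and 1.32% ± 0.18 of Ku70-/- rejoins (-87.9 points, exact permutation p = 0.005, adjusted p = 0.0055). Losses over 100 bases made up 14.9%, 16.4% and 10.5% of Ku70-/- A1 rejoins and 31.2%, 28.8% and 30.7% of Ku70-/- B1 rejoins. The same losses made up 0.0303% ± 0.0101 in WT A and 0.143% ± 0.0116 in WT B, and no Ku70-/- library came near a WT library (22.01 points, exact permutation p = 0.005, adjusted p = 0.0055). Most losses of Ku70-/- cells ended within that distance or not far beyond it. More than 300 prey bases were lost in 7 to 26 rows of each A1 library and 49 to 99 rows of each B1 library, against 0 to 4 in WT A and 11 to 24 in WT B. Losses over 1000 bases were not seen in lineage A and made up 0.00896% ± 0.011 of WT B and 0.0022% ± 0.00214 of Ku70-/- B1 rejoins, a difference within the spread (exact permutation p = 0.5, adjusted p = 0.5).

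Prey losses of the Ku70-/- clones had different centres. Their medians were 25, 38 and 23 bases in A1 and 80, 78 and 78 bases in B1. In A1, 29.7% ± 3.52 of rejoins had lost 21 to 40 prey bases, which places the prey start at the near edge of the C run and CA repeat, and 18.9% ± 5.49 had lost 81 to 150. In B1 these shares were 5.75% ± 0.424 and 45.2% ± 1.47. A prey loss of 41 to 80 bases, inside the repeat, was read in 17.97% ± 4.33 of A1 and 30.4% ± 0.64 of B1 rejoins.

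**Figure D1:**
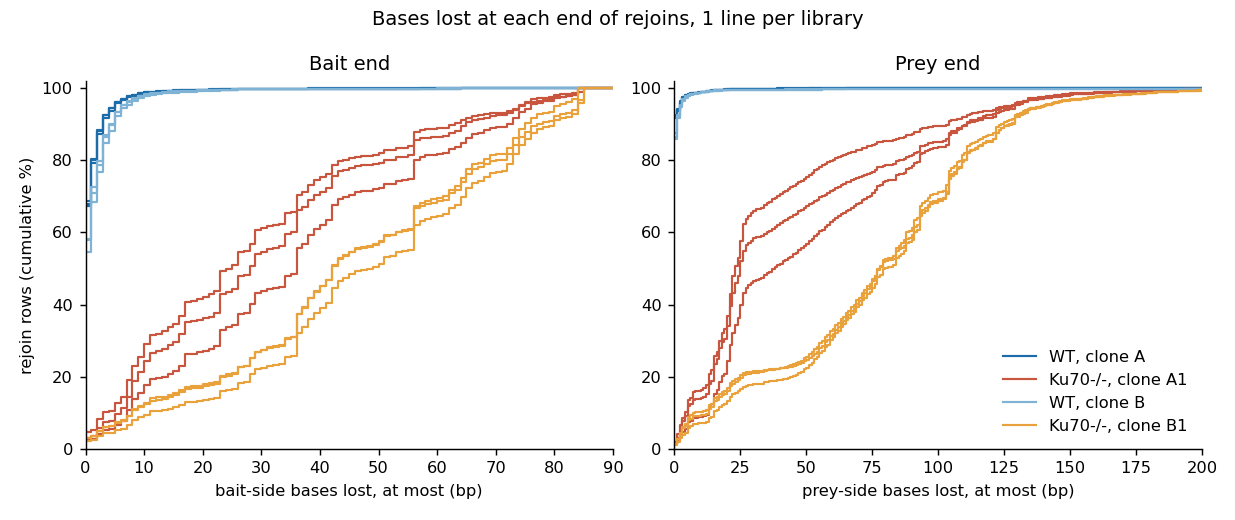
Cumulative percent of rejoin rows (y axis) by bases lost from the bait end and the prey end (x axis, bp), with 1 line for each of the 12 libraries. WT lines start at 54.7% to 68.7% on the bait side and are near the top within 10 bases; Ku70-/- lines start below 5% on the bait side and climb across the whole range, later in clone B1 than in clone A1.

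Most Ku70-/- rejoins had lost bases on both sides. Both ends were deleted in 95.4% ± 1.43 of A1 and 96.4% ± 0.641 of B1 rejoins, against 4.25% ± 0.275 of WT A and 5.77% ± 0.198 of WT B rejoins (90.9 points, exact permutation p = 0.005, adjusted p = 0.0055). A loss on 1 side only was the more usual way for a WT join to lose bases: it made up 31.0% to 31.7% of rejoins in the WT A libraries and 43.2% to 47.5% in the WT B libraries, against 2.42% to 5.60% in the Ku70-/- libraries. The sizes of the losses on both sides also went together in Ku70-/- cells. Across rejoin rows of a library, Spearman's rho between bait and prey loss was 0.786 to 0.812 in A1 and 0.697 to 0.71 in B1, against 0.156 to 0.176 in WT A and 0.018 to 0.066 in WT B. Over distinct junctions it was 0.597 to 0.642 in A1, 0.478 to 0.526 in B1, 0.0344 to 0.0648 in WT A and 0.0312 to 0.112 in WT B. These values were lower than over rows in both Ku70-/- clones and WT A, and higher in WT B. The median of bases missing in all, shared bases counted once, was 56, 79 and 49 in A1 and 133, 129 and 129 in B1.

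**Figure D2:**
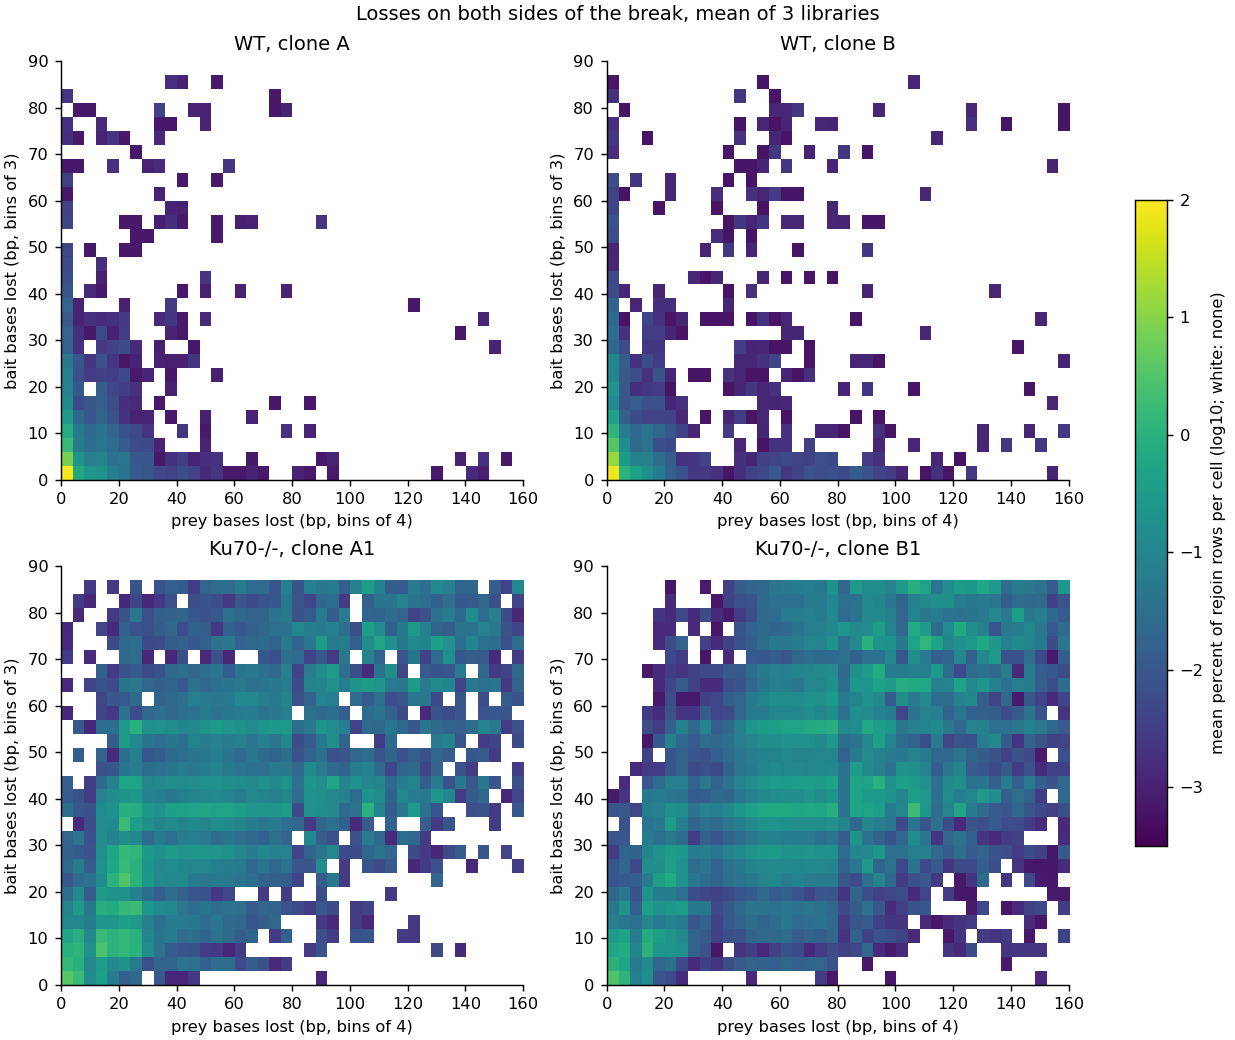
Mean percent of rejoin rows (colour, log10 scale) by prey bases lost (x axis, bins of 4 bp) and bait bases lost (y axis, bins of 3 bp) in the 4 groups; white cells held no row. WT rows gather in the lower left corner and along its axes, and Ku70-/- rows spread over a broad area around the diagonal, with few rows where 1 end is whole and the other lost many bases.

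Counting each distinct junction once left these contrasts in place. An intact bait end was then found in 32.5% ± 2.23 of WT A and 39.9% ± 2.79 of WT B junctions, against 1.02% ± 0.0453 and 1.26% ± 0.261 in Ku70-/- A1 and B1. An intact prey end was found in 63.9% ± 2.01 and 54.6% ± 3.24 of WT rejoins, against 0.811% ± 0.135 and 0.465% ± 0.122 in Ku70-/- rejoins, and both ends were deleted in 25.2% ± 1.98 and 35.1% ± 2.56 against 98.4% ± 0.258 and 99.0% ± 0.197. For each of these the WT and Ku70-/- libraries stayed apart in both lineages (exact permutation p = 0.005, adjusted p = 0.0073 over 19 measures). Of the 19 shares tested on distinct junctions, 13 differed; on rows, 20 of the 22 measures did.

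The structure of the joint itself changed as well: WT joints were mostly insertions and Ku70-/- joints mostly blunt or overlapping. Insertions made up 91.5%, 90.9% and 91.6% of WT A rows and 68.5%, 72.0% and 70.6% of WT B rows. They made up 4.72%, 4.73% and 4.66% of Ku70-/- A1 rows and 5.82%, 4.97% and 5.64% of Ku70-/- B1 rows, and every Ku70-/- library was far below WT (-75.7 points, exact permutation p = 0.005, adjusted p = 0.0055). On distinct junctions insertions made up 90.6% ± 1.26 and 63.99% ± 2.9 in WT A and B, against 24.5%, 12.8% and 22.8% in the A1 libraries and 21.5%, 16.2% and 19.7% in the B1 libraries (-57.7 points, exact permutation p = 0.005, adjusted p = 0.0073). Ku70-/- insertions were thus a larger share of the distinct junctions than of the rows, and the A1 libraries differed more among themselves. Insertions of 1 base fell from 32.7% ± 0.549 and 40.98% ± 1.04 in WT A and B to 1.33% ± 0.138 and 1.95% ± 0.102, and insertions of 2 or more bases from 58.6% ± 0.883 and 29.4% ± 1.48 to 3.37% ± 0.17 and 3.53% ± 0.353 (each exact permutation p = 0.005, adjusted p = 0.0055). The size of the first difference depended on how copies were counted. By distinct fragments (junctions also told apart by prey end and read length), an alternative chosen after seeing the data, it was -18.3 points (exact permutation p = 0.005, adjusted p = 0.0068). Counted as distinct junctions, joints with both ends whole and 1 base inserted gave 4 in each WT library, 1 for each possible base, however many rows they held. On distinct junctions insertions of 1 base made up 6.27% ± 0.306 and 11.1% ± 0.742 in WT and 3.97% ± 1.46 and 5.11% ± 0.484 in Ku70-/- cells (-4.14 points, exact permutation p = 0.005, adjusted p = 0.0073). Among distinct rejoins of lineage A they made up 4.64% ± 0.463 in WT and 4.72% ± 1.87 in Ku70-/- A1. Insertions of 10 or more bases were rare, at 0.621% ± 0.0701 and 0.214% ± 0.0308 of rows in WT and 0.959% ± 0.149 and 0.553% ± 0.0514 in Ku70-/- cells.

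Blunt joins, with neither shared nor inserted bases, rose from 6.91% ± 0.272 in WT A and 18.6% ± 0.97 in WT B to 29.4% ± 1.85 and 29.9% ± 2.09 (16.9 points, exact permutation p = 0.005, adjusted p = 0.0055). An overlap of 1 base rose from 0.928% ± 0.121 and 6.11% ± 0.459 to 28.8% ± 1.69 and 27.8% ± 0.611, and an overlap of 2 or more bases from 0.860% ± 0.0517 and 4.93% ± 0.385 to 37.1% ± 3.32 and 36.8% ± 1.2 (34.1 points, exact permutation p = 0.005, adjusted p = 0.0055). The last difference was 15.9 points with the LAM-HTGTS lists, which the authors also deposited for the lineage A libraries (exact permutation p = 0.06, adjusted p = 0.068). It was 2.52 points with junctions told apart by position and bait end only (exact permutation p = 0.14, adjusted p = 0.16). Neither passed the threshold. The overlaps of Ku70-/- joints were short. Overlaps of 2 bases made up 22.4% ± 1.55 of A1 and 22.1% ± 0.621 of B1 rows, overlaps of 3 bases 11.6% ± 1.01 and 9.39% ± 0.626, and overlaps of 4 bases 2.10% ± 0.59 and 3.80% ± 0.165. On distinct junctions an overlap of 2 or more bases made up 17.1% ± 3.53 and 17.0% ± 0.477 in Ku70-/- cells and 2.96% ± 0.356 and 10.9% ± 0.5 in WT cells (exact permutation p = 0.005, adjusted p = 0.0073).

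**Figure D3:**
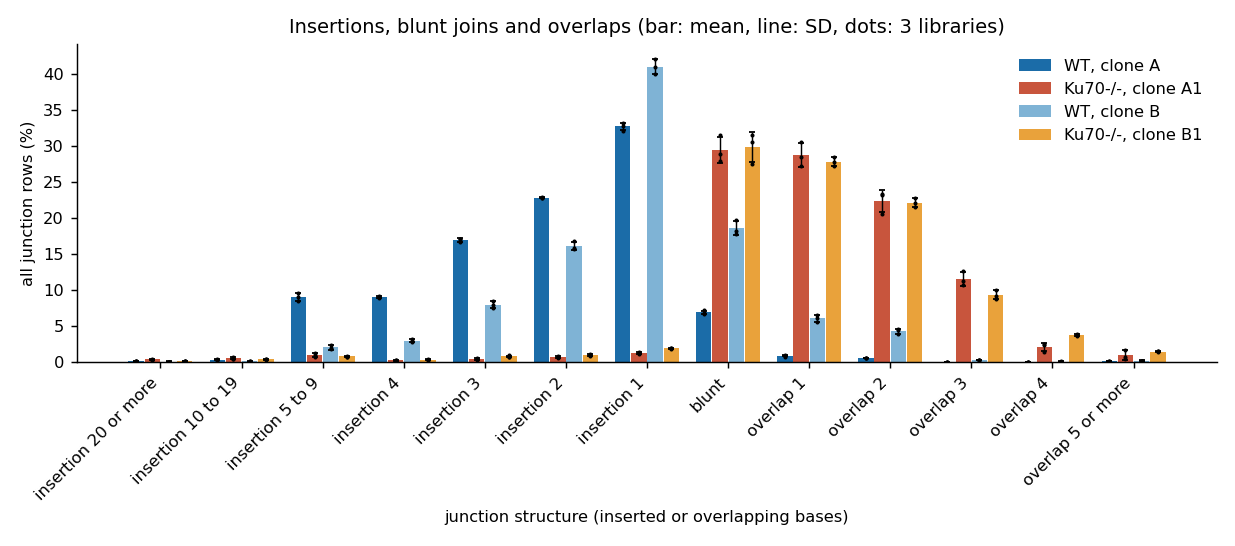
Percent of all junction rows (y axis) by number of inserted or overlapping bases (x axis) in the 4 groups; bars are means, lines SD and dots the 3 libraries. WT bars are highest at 1 inserted base, and most Ku70-/- rows lie between blunt and an overlap of 3 bases.

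Overlaps of 5 or more bases were rare in all groups. They rose on rows, from 0.164% ± 0.0459 and 0.217% ± 0.0481 in WT to 1.02% ± 0.635 and 1.49% ± 0.0952 in Ku70-/- cells (1.06 points, exact permutation p = 0.005, adjusted p = 0.0055). The GGGGA join with 37 bait and 104 prey bases lost, which no WT library held, made up 0.508% ± 0.22 of A1 and 0.894% ± 0.0702 of B1 rows. On distinct junctions the share of such overlaps was 1.25% ± 0.315 and 1.86% ± 0.233 in WT against 1.76% ± 1.0 and 1.86% ± 0.123 in Ku70-/- cells, a difference within the spread (exact permutation p = 0.6, adjusted p = 0.6). Among junctions with other chromosomes it was 8.24% ± 3.37 and 3.94% ± 0.823 in WT against 4.71% ± 2.1 and 3.51% ± 0.319.

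The overlaps were set beside those that the local sequence offers. Joining each of 0 to 86 lost bait bases to each of 0 to 150 lost prey bases gives 9846 different products, of which 73.8% have no shared base, 20.3% share 1 base and 5.81% share 2 or more. Among distinct Ku70-/- rejoins without insertion over the same lengths, 51.9% ± 2.05 in A1 and 58.0% ± 1.75 in B1 were blunt, 32.97% ± 1.23 and 30.02% ± 0.952 shared 1 base, and 15.2% ± 1.02 and 11.97% ± 0.795 shared 2 or more. Among their rows the last share was 38.98% ± 3.59 and 39.8% ± 1.37, so a distinct join of this kind held more rows than others on average. WT rejoins without insertion were few, and among their distinct junctions 14.5% ± 3.23 in A and 14.3% ± 1.17 in B shared 2 or more bases, close to the Ku70-/- values; their rows gave 6.70% ± 0.135 and 14.4% ± 0.741. These figures are given as a description, with no test.

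The inserted bases differed between genotypes too. Of joints with both ends whole and 1 base inserted, WT libraries held 69777 rows and Ku70-/- libraries 762. The base was A in 55546 of the WT rows, and in 14231 it was C, G or T. In Ku70-/- cells it was A in 761 rows and T in 1. By library the share of A was 75.4%, 75.2% and 74.5% in WT A and 83.2%, 83.1% and 83.9% in WT B, against 98.0% in Ku70-/- A1 replicate 1 and 100% in the other Ku70-/- libraries (20.4 points, exact permutation p = 0.005, adjusted p = 0.0085). The last bait base at the break is itself an A, so this joint reads gataA followed by gtag. G was the next most frequent base in WT, in 16.4% ± 0.745 of these joints in A and 9.04% ± 0.736 in B. Joints with both ends whole and 2 or more inserted bases numbered 52642 rows in WT, or 33.7% ± 0.779 of A and 14.01% ± 1.13 of B rows, and 2 rows in Ku70-/- cells (-23.8 points, exact permutation p = 0.005, adjusted p = 0.0085). These measures and those on prey loci below were chosen after the values were seen, and their p-values are adjusted over 17 such measures.

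Longer insertions held more G in WT cells and more C in Ku70-/- cells. In insertions of 2 to 10 bases, G made up 40.9% ± 0.738 of bases in WT A and 30.5% ± 0.787 in WT B, against 8.31% ± 2.46 and 16.4% ± 0.128 in Ku70-/- A1 and B1 (-23.4 points, exact permutation p = 0.005, adjusted p = 0.0085). C made up 22.1% ± 0.319 and 19.3% ± 0.566 in WT against 52.7% ± 4.23 and 46.4% ± 3.04. The share of A went opposite ways in the lineages, from 27.5% ± 0.56 to 31.2% ± 2.01 in A and from 36.7% ± 0.764 to 27.3% ± 2.18 in B. The most frequent inserted sequences were A, G, GG, AA and GA in WT, and A, C, T, G and CC in Ku70-/- cells. Among insertions of 2 to 10 bases, CCCCCAAC made up 6.86% ± 2.38 in Ku70-/- A1 and 1.79% ± 0.434 in B1. The same letters stand in the prey-side C run. This share covers all junctions, translocations included. In A1 rejoins only 42 rows held any insertion of 8 or more bases that occurs in the sequence around the break. The prey end lay in the C run or CA repeat (57 bases) in 50.2% ± 4.22 of A1 and 42.9% ± 5.18 of B1 rejoins with an insertion, against 0.146% ± 0.0102 and 0.12% ± 0.0188 in WT. The base shares were also taken over the other rejoins with an insertion, which leaves out translocations too. They held 397 ± 220 of 2295 ± 624 bases per library in A1 and 1596 ± 510 of 5155 ± 2042 in B1. There G made up 33.1% ± 3.16 and 26.3% ± 2.69 of inserted bases in Ku70-/- cells and 41.1% ± 0.68 and 30.7% ± 0.779 in WT. C then made up 19.7% ± 0.641 in A1 against 21.9% ± 0.257 in WT A. In lineage B it made up 29.5% ± 0.257 in Ku70-/- and 18.8% ± 0.677 in WT cells. Insertions of 8 or more bases in rejoins were searched for in the sequence around the break and its reverse complement. Of these, 18% ± 4.37 in A1 and 5.74% ± 1.74 in B1 occurred there word for word, against 2.65% ± 0.929 in WT A and 0.247% ± 0.428 in WT B. Translocations were not part of this count.

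The shared bases differed as well. Among joints with an overlap, the most frequent in WT were G (34.3% ± 3.32 in A, 39.7% ± 0.458 in B) and TA (24.6% ± 2.58 and 30.7% ± 1.05), followed by A, T and GT. TA is the overlap of the join that loses 1 prey base. In Ku70-/- cells they were C (23.5% ± 2.51 in A1, 19.1% ± 0.688 in B1), G (11.5% ± 1.03 and 13.6% ± 1.06) and A, then AC and GC at 5.41% to 7.38%. No overlap of 2 or more bases exceeded 13.1% of such joints in Ku70-/- A1 or 12.5% in B1, whereas TA alone made up 51.1% ± 3.67 in WT A and 68.9% ± 2.26 in WT B.

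Recurrent junctions were then compared: rejoins of 1 bait loss, prey loss and overlap or insertion length whose mean share over all 12 libraries was at least 0.05%. There were 223, and 211 of them (94.6%) differed between genotypes in the same direction in both lineages, 159 (71.3%) higher and 52 (23.3%) lower in Ku70-/- cells. A junction frequent in 1 genotype only passes that minimum, so these counts describe the lists. The 52 lower ones were 44 insertions, 7 blunt joins and 1 overlap, 50 had an intact end, and their summed share was 84.5% in WT and 1.01% in Ku70-/- cells. The 159 higher ones were 133 overlaps and 26 blunt joins, 157 had lost bases at both ends, and their summed share was 0.62% in WT and 33.8% in Ku70-/- cells. Of these, 101 were not found in any WT library, and 28 of the lower ones were not found in any Ku70-/- library.

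In WT cells the first of these was the join with both ends whole and 1 inserted base. It made up 29.5%, 29.8% and 29.1% of WT A rows and 31.0%, 33.5% and 33.8% of WT B rows, against 0.211% to 0.499% in the 6 Ku70-/- libraries (-30.7 points). With 2 inserted bases it made up 16.4% ± 0.296 and 9.19% ± 0.514 of WT rows, with 3 bases 10.2% ± 0.186 and 3.09% ± 0.402, and neither was found in a Ku70-/- library. The blunt join that loses 1 bait base made up 3.27% ± 0.241 and 8.33% ± 0.382 in WT and 0.129% ± 0.0709 and 0.117% ± 0.0123 in Ku70-/- cells. With 3 counts as the limit, the Ku70-/- libraries allow a share of 0.00578% to 0.0237% for a junction not found in them.

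In Ku70-/- cells no junction stood out in that way. The TGC join with 23 bait and 20 prey bases lost made up 2.36%, 1.97% and 2.42% of A1 rows and 0.591%, 0.52% and 0.482% of B1 rows, with 1 row each in 2 of the 6 WT libraries (0.00222% and 0.00179%). The GT join with 8 and 15 bases lost made up 1.53% ± 0.496 of A1 and 0.582% ± 0.0155 of B1 rows, and the GAG join with 11 and 13 bases lost 0.815% ± 0.113 and 0.414% ± 0.059. The joins with longer losses were instead more frequent in B1. The GGGGA join is given above, and the GT join with 73 and 109 bases lost made up 0.351% ± 0.215 of A1 and 0.936% ± 0.0352 of B1 rows and was not found in WT. These joins were chosen for their frequency or their difference, so their values are a description. The short-loss joins were thus more frequent in A1 and the long-loss joins in B1, the same order as the loss medians.

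A few joins were common to both genotypes. The TA join with 1 prey base lost made up 0.396% ± 0.0154 of WT A and 1.28% ± 0.499 of Ku70-/- A1 rows, but 3.18% ± 0.247 of WT B and 0.978% ± 0.198 of Ku70-/- B1 rows. It ranked second among the Ku70-/- junctions and was 1 of the 12 recurrent junctions that were not called. Its differences had opposite signs in the lineages (exact permutation p = 0.255, adjusted p = 0.262).

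**Figure D4:**
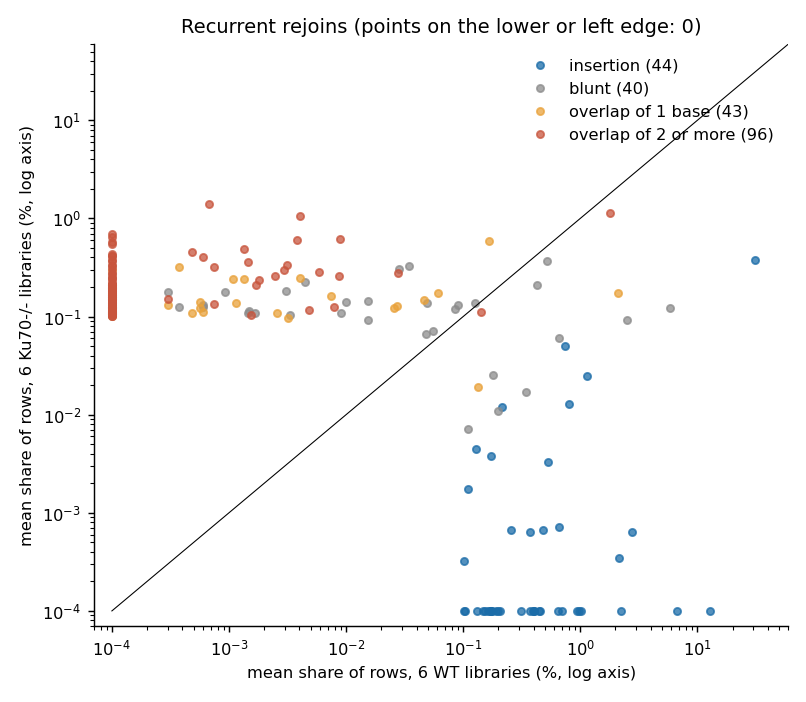
Mean share of rows of the 223 recurrent rejoins in the 6 Ku70-/- libraries (y axis, log scale) against the 6 WT libraries (x axis, log scale), coloured by joint structure; points on the left or lower edge were at 0. The 44 insertions lie below the diagonal line of equal shares, and 92 of the 96 overlaps of 2 or more bases were called higher in Ku70-/- cells and lie above it.

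WT rows were concentrated on a few junctions, and Ku70-/- rows were spread over many. The lists did not hold fewer distinct junctions in WT throughout: lineage A had 4336, 5578 and 4318 in WT and 3762, 4215 and 4206 in Ku70-/- A1. Lineage B had 3440, 3475 and 5562 in WT and 10805, 6835 and 12152 in Ku70-/- B1. In WT cells 3 junction structures gave 50% of rejoin rows in every library, whereas 155 to 219 were needed in the A1 libraries and 280 to 313 in the B1 libraries. The 10 most frequent rejoin structures gave 73.7% ± 0.605 of all rows in WT A and 69.0% ± 1.58 in WT B, against 10.9% ± 1.88 and 7.24% ± 0.142 in Ku70-/- A1 and B1. The effective number of junctions (the number of equally frequent junctions that would give the same chance that a pair of rows holds 1 junction, inserted bases counted) was 17.1 ± 0.322 and 11.3 ± 0.925 in WT and 406 ± 123 and 746 ± 30.4 in Ku70-/- cells (5.29 as a difference of log2 values, exact permutation p = 0.005, adjusted p = 0.0055). The expected number of distinct junctions in 10000 rows was 1869 ± 51.9 and 1547 ± 48.7 in WT against 2845 ± 656 and 3780 ± 134 (0.94 as a difference of log2 values, exact permutation p = 0.005, adjusted p = 0.0055). Rows outside rejoins, all of them distinct, enter both of these numbers and were a larger share of Ku70-/- than of WT rows. Their part in the differences is not given here. Although spread over many, Ku70-/- junctions recurred between libraries. In all 3 A1 libraries 1167 distinct junctions were found, which held 69.0% to 78.6% of their rows. In all 3 B1 libraries 2444 were found. Of the rejoin structures of A1, 3490 were also found in B1, which is 69.3% of those of A1 and 36.2% of those of B1.

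Rejoins within 100 kb made up 98.1% ± 0.595 of WT A and 95.1% ± 0.351 of WT B rows, and 92.9% ± 5.05 and 89.7% ± 0.848 of Ku70-/- rows. Junctions with other chromosomes (translocations) made up 2.37%, 1.55% and 1.27% of WT A rows and 3.80%, 11.9% and 4.05% of Ku70-/- A1 rows. In lineage B the WT libraries held 4.87%, 4.22% and 4.31% of them and the Ku70-/- libraries 9.29%, 8.99% and 10.5%. Ku70-/- shares were thus higher in both lineages (5.0 points, exact permutation p = 0.005, adjusted p = 0.0055), with A1 replicate 2, the smallest library, far above the others; without it the difference was 3.67 points. This share sets rows without copies against rows with copies. On distinct junctions it was 13.05% ± 3.23 and 28.3% ± 6.64 in lineage A but 39.6% ± 3.61 and 40.1% ± 5.48 in lineage B (7.82 points, exact permutation p = 0.065, adjusted p = 0.077). Per 100000 raw reads, translocation rows numbered 156 ± 39.4 in WT A and 291 ± 81.3 in Ku70-/- A1, and 279 ± 106 in WT B and 680 ± 266 in Ku70-/- B1 (268 more, exact permutation p = 0.01, adjusted p = 0.014); the groups overlapped in lineage B. Inversions within 100 kb, whose prey points the other way, made up 0.0187% ± 0.0105 and 0.0516% ± 0.0167 in WT and 0.03% ± 0.0197 and 0.0519% ± 0.00912 in Ku70-/- cells, a difference within the spread (exact permutation p = 0.48, adjusted p = 0.5). Junctions farther along chromosome 15 rose from 0.18% ± 0.0178 and 0.337% ± 0.0254 to 0.518% ± 0.424 and 0.673% ± 0.0396 on rows (0.337 points, exact permutation p = 0.005, adjusted p = 0.0055; 0.216 points without A1 replicate 2), but not on distinct junctions (exact permutation p = 0.37, adjusted p = 0.41).

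The most frequent partner chromosome was chromosome 6, which carries the Igk light chain locus. G1-arrested v-Abl cells are known to cut Igk with the RAG recombinase, which makes breaks beside V and J segments during antigen receptor assembly. Chromosome 6 took 20.5% ± 2.02 of translocations in WT A, 18.7% ± 4.34 in Ku70-/- A1, 24.8% ± 4.18 in WT B and 41.6% ± 4.37 in Ku70-/- B1. As a share of all rows it was higher in Ku70-/- cells (1.93 points, exact permutation p = 0.005, adjusted p = 0.0055), at 0.672%, 2.80% and 0.609% in the A1 libraries against 0.54%, 0.305% and 0.241% in WT A. The A1 mean rests largely on replicate 2. Per 100000 raw reads the groups overlapped in lineage A, with 41.1, 34.6 and 20.9 rows in WT and 39.4, 89.6 and 40.6 in Ku70-/- A1. With junctions told apart by position and bait end only, the difference in share turned to -0.517 points (exact permutation p = 0.78, adjusted p = 0.78). Chromosomes 1, 2 and 5, the next in rank, each took between 3.93% and 7.11% of translocations in the 4 groups.

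Within Igk, WT translocations lay mostly at the J segments and Ku70-/- translocations mostly at the V segments. Igkj1 to Igkj5 with 200 bp on each side (chromosome 6, 70722362 to 70724123) took 15.8%, 13.3% and 11.9% of translocations in WT A and 2.72%, 4.04% and 2.15% in Ku70-/- A1. In lineage B they took 17.1%, 19.02% and 11.4% in WT and 8.55%, 12.9% and 9.44% in Ku70-/- libraries, where the groups overlapped (-8.13 points, exact permutation p = 0.01, adjusted p = 0.014). The Igkv region with 162 annotated V segments (67555636 to 70704177) took 1.46% ± 0.42 and 2.84% ± 0.289 in WT, against 9.30% ± 4.02 and 26.4% ± 2.41 in Ku70-/- A1 and B1 (15.7 points, exact permutation p = 0.005, adjusted p = 0.0085). Of the junctions in that region, 90.1% to 93.0% on group average lay within 200 bp of an annotated Igkv segment in all 4 groups. There were 2.25 to 3.36 Igkv junctions for each Igkj junction in Ku70-/- libraries and 0.0753 to 0.225 in WT libraries. Per 100000 raw reads, Igkv junctions rose by 97.0 (exact permutation p = 0.005, adjusted p = 0.0085), and Igkj junctions went opposite ways in the lineages. They were lower by 12.6 in Ku70-/- A1, where the groups overlapped. In lineage B they were higher by 25.0, with 38.8, 39.7 and 45.8 in WT and 63.2, 50.2 and 86.0 in Ku70-/- B1, which did not overlap. The mean over lineages did not pass the test (6.19 more, exact permutation p = 0.515, adjusted p = 0.515).

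Other antigen receptor loci also took part in Ku70-/- cells. The Igl light chain locus on chromosome 16 (19063225 to 19260844) held 144 junctions in the 6 Ku70-/- libraries, between 4 and 52 in each, and 2 in the 6 WT libraries; 140 of the 144 lay within 200 bp of an annotated segment. Its share of translocations was 0.729% ± 0.329 in A1 and 1.08% ± 0.499 in B1, against 0.0763% ± 0.132 and 0.0244% ± 0.0423 in WT. The Trg locus of the T cell receptor gamma chain on chromosome 13 (19178042 to 19342212) held 49 junctions in Ku70-/- cells, 2 to 16 in each library, and 0 of 6870 translocations in WT, which allows a share of up to 0.0437%. The Igh heavy chain locus on chromosome 12 (113428514 to 116009954) held 4 to 9 junctions in each A1 library and none in WT A, and 33 to 67 in each B1 library against 4 to 6 in WT B. For all 3 loci the share of translocations was higher in every Ku70-/- library than in any WT library of its lineage (Igl 0.85 points, Igh 0.73 points, Trg 0.38 points, each with exact permutation p = 0.005, adjusted p = 0.0085). Of the remaining receptor loci, Tra and Trd held 19 junctions in Ku70-/- cells, 16 in A1 and 3 in B1, and 2 in WT. Trb held 0 in Ku70-/- cells and 2 in WT. Of the 10 bins of 100 kb with most translocations outside these Igkj and Igkv regions, 6 lay in the Igl, Igh or Trg loci. The fullest bin lay in Igk (chromosome 6, 70700001 to 70800000), with 130 rows in Ku70-/- and 27 in WT libraries. Its rows are in neither the Igkj nor the Igkv counts above.

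**Figure D5:**
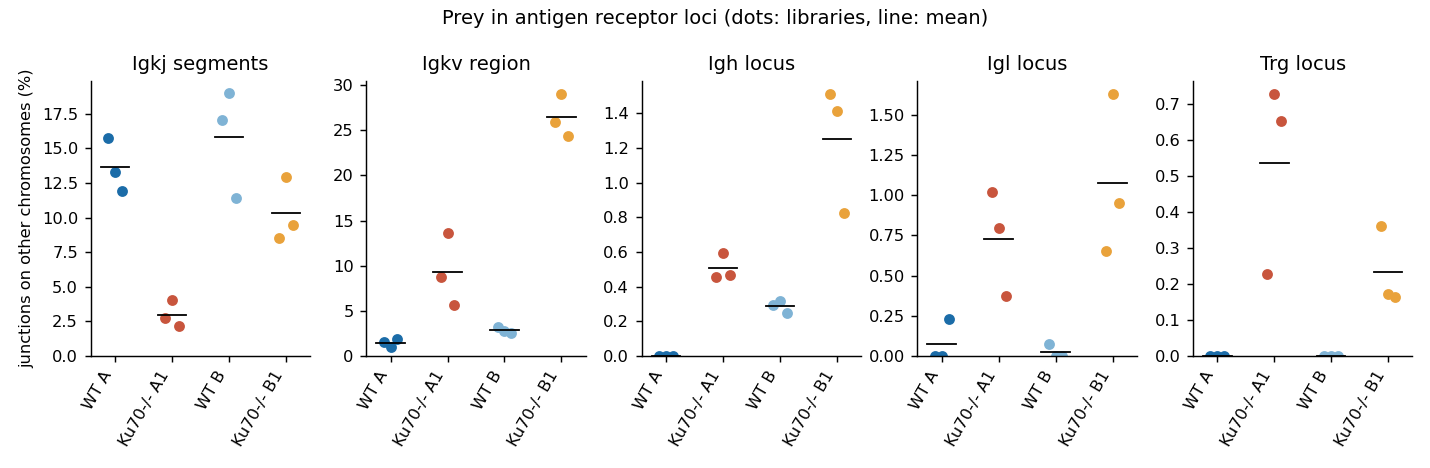
Percent of translocations (y axis, a scale of its own for each locus) whose prey lay at the Igkj segments, in the Igkv region or in the Igh, Igl or Trg locus, for each library (dots) of the 4 groups with the mean (line). Igkj shares are lower, and Igkv, Igl and Trg shares higher, in Ku70-/- than in WT libraries, with overlap only for Igkj in lineage B.

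Translocations, too, had lost bait bases in Ku70-/- cells and held fewer short insertions. The bait end was intact in 55.6% ± 0.536 of translocations in WT A and 61.9% ± 3.43 in WT B, and in 1.39% ± 0.398 and 2.07% ± 0.608 in Ku70-/- A1 and B1 (-57.0 points, exact permutation p = 0.005, adjusted p = 0.0056 over 9 measures). Insertions of 1 to 4 bases made up 48.0% ± 0.967 and 28.5% ± 1.82 in WT against 6.95% ± 1.34 and 5.38% ± 0.989 (-32.1 points, exact permutation p = 0.005, adjusted p = 0.0085). Insertions of 5 or more bases went the other way, from 10.4% ± 0.944 and 4.93% ± 0.667 in WT to 23.9% ± 7.91 and 8.34% ± 0.841 in Ku70-/- cells (8.44 points, exact permutation p = 0.005, adjusted p = 0.0085). Overlaps of 2 or more bases rose by 5.395 points (exact permutation p = 0.005, adjusted p = 0.0056), against 34.1 points over all junctions.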

How the data were processed

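Junction lists of 12 libraries, 3 for each of WT A, Ku70-/- A1, WT B and Ku70-/- B1, were used as the authors deposited them, with 1 row per read. Each list gives the position, orientation, overlap or inserted bases and read sequence of a junction; these columns, including the deposited read sequences, are coordinates, lengths and letters of no other unit. Per the submitters' processing notes, Bowtie2 and mm10 were used; versions, filters and the treatment of copies are not given in the sources used here. Sequencing depth is known from the labels' raw-read normalisation, to 396387 reads for a lineage A library and 600000 for a lineage B library, and counts per 100000 use it. Intervals and limits cover counting error only.

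The break was taken from the most frequent bait end and prey start. Bait and prey losses, overlap and insertion lengths were computed for each row with Python 3.11.15, numpy 2.4.6 and pandas 2.3.3. In 74 rejoin rows the prey started before the break, in 42 of them by 1 base, and these were counted as 0 bases lost. Each share was computed per library, on rows and on distinct junctions. Genotypes were compared with a two-sided exact permutation test of the difference in group means averaged over lineages (scipy 1.17.1; 400 relabellings), with Benjamini-Hochberg adjustment over 22 measures on rows, and separately over distinct junctions and over recurrent junctions. A junction was recurrent at a mean share of at least 0.05% and was called at an adjusted p under 0.05 with the same sign in both lineages. The scripts were tested on simulated data. Named junctions were the 5 most frequent of each genotype and the 5 called with the largest difference in each direction, 11 in all; named chromosomes were 15, 6 and the 3 others with the highest mean share; named inserted or shared sequences were the 5 most frequent of each genotype. Members, measures and lists were chosen with earlier results of these data known, and 17 measures on inserted bases and prey loci were added after values were seen. Replicates of a group were compared by chi-square over frequent junctions and shared no read names; no pair agreed within sampling noise. Replicate numbers did not pair the samples.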

Additional observations from a re-analysis of the deposited data

Results flagged for a closer look

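In 6 cases every Ku70-/- library moved one way against WT in lineage A and the opposite way in lineage B; the difference between the lineages was not tested, and lineage, sequencer and clone cannot be told apart in it. Distinct rejoins per 100000 raw reads differed by -313.5 (Ku70-/- minus WT) in lineage A and by 533.9 in lineage B. The TA join that loses 1 prey base differed by 0.889 percentage points of rows in lineage A and by -2.20 in lineage B. The blunt join that loses 4 prey bases and keeps the bait end differed by 0.118 and -0.0912 points, and the one that loses 6 prey bases by 0.069 and -0.038 points. The blunt join with 5 bait and 2 prey bases lost differed by 0.0676 and -0.0321 points. The join with 8 bait bases lost, an intact prey end and 2 shared bases differed by 0.119 and -0.18 points.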

How the results depend on the processing

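Of 450 alternative values, 429 counted as unchanged, 276 of them with 1 library left out, where all did. A measure was unchanged if it kept its direction and its side of the threshold. For recurrent junctions only the number of calls was compared, not each junction. With the replicate block (an exact sign-flip test over same-numbered libraries, smallest p 0.0312) no call among the 22 measures changed. Insertions differed there by -75.7 points, and 209 of the 223 recurrent junctions were called against 211. Same-numbered libraries did not deviate together: their correlations ran from -0.3 to 0.254, with 2 of 6 over 0.1. What changed was mostly how copies are counted in class shares. With each distinct junction counted once, rejoins differed by -7.99 points, junctions farther along chromosome 15 by 0.299, other chromosomes by 7.82 and overlaps of 5 or more bases by 0.254, no longer past the threshold, and inversions turned to -0.122. With junctions told apart by position and bait end only, rejoins turned to 28.9, inversions to -0.545, chromosome 15 beyond 100 kb to -3.10, other chromosomes to -25.3, chromosome 6 to -0.517 and overlaps of 5 or more to -2.56, and overlaps of 2 or more differed by 2.52, no longer past the threshold. By distinct fragments, an alternative chosen after seeing the data, rejoins differed by -1.97, chromosome 15 beyond 100 kb by 0.0779 and other chromosomes by 1.93, none past the threshold, and inversions turned to -0.0398. Among translocations alone, overlaps of 5 or more turned to -1.98. With LAM-HTGTS lists for lineage A, overlaps of 2 or more differed by 15.9, not past the threshold, and those of 5 or more turned to -2.29. Recurrent calls numbered 511 at a minimum share of 0.02%, where more junctions are tested, and 40 at 0.2%, where fewer are. The numbers tested at these minima are not given here. These counts therefore do not show whether the share called moved from the 94.6% of the main setting. Apart from the counting rules, the cause was not tested. The larger planned draw of rows was not run, because Ku70-/- A1 replicate 2 holds 12668. Within lineage B, whose libraries shared a run, the smallest p is 0.1; 20 of the 22 measures had no overlap there.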
